A study of Mus musculus with 4 samples.

Results

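The nuclear genes of respiratory complexes II to V were followed in mouse embryonic stem cells from which RPB3, a core subunit of RNA polymerase II, could be removed. The set held the rows of the deposited table with a symbol beginning Uqcr, Cox4, Cox5, Cox6, Cox7, Cox8 or Atp5, together with Sdha, Sdhb, Sdhc, Sdhd, Cyc1 and Cycs, with pseudogenes left out. This gave 48 genes of 30282 rows: 4 of complex II, 10 of complex III with cytochrome c, 17 of complex IV and 17 of complex V. The IAA group (2 libraries) was V6.5 cells whose RPB3 carries a mini auxin-inducible degron (mAID) and GFP, given doxycycline at 1 µg/ml for 12 h to induce TIR1 and then indole-3-acetic acid (IAA, an auxin) at 500 µM for 12 h. The Untreated group (2 libraries) was the same degron line with doxycycline for 12 h and no IAA, so that both groups carried the degron and had received doxycycline. TIR1 is the plant F-box protein that marks a degron-tagged protein for degradation once auxin is present. The cells were grown with inhibitors of GSK3 and MEK, and poly(A) libraries were made from total RNA. One sentence of the treatment protocol gives 1 h of depletion, whereas the sample labels give 12 h, so the length of IAA treatment is not settled by these sources. Libraries with IAA but without the degron were not analysed here, and the labels do not say whether the line is 1 clone or whether each library had its own culture, so the spread that p-values measure here is that of the libraries and may be technical.

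The respiratory chain sits in the inner mitochondrial membrane. Complex II (succinate dehydrogenase) passes electrons from succinate to ubiquinone, complex III passes them to the small carrier cytochrome c, and complex IV (cytochrome c oxidase) passes them to oxygen. Complexes III and IV pump protons, and complex V (ATP synthase) uses the proton gradient to make ATP. Complex II is made from nuclear genes alone, whereas complexes III, IV and V each combine nuclear subunits with subunits encoded in mitochondrial DNA. Naive mouse embryonic stem cells, the state favoured by GSK3 and MEK inhibition, use both respiration and glycolysis.

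Recovered reads totalled 8724737 to 9194432 per library. The stem cell markers Pou5f1, Nanog, Sox2, Zfp42, Esrrb, Klf4, Tfcp2l1 and Dppa5a were all abundant, with summed normalised read counts of 56078 and 53945 in the IAA libraries and 51426 and 53210 in the Untreated libraries. Single markers differed in direction: Klf4 (0.52), Nanog (0.33) and Tfcp2l1 (0.27) were called higher after IAA, and Dppa5a (-0.36), Pou5f1 (-0.24) and Zfp42 (-0.15) lower. With median-of-ratios factors Zfp42 was not called, and Sox2 (0.19) and Esrrb (0.11) were called higher. Polr2c, the gene of RPB3, had 3242 and 3158 normalised read counts after IAA, against 2726 and 2885 in Untreated cells (log2 fold change 0.19, SE 0.04, limma adjusted p = 0.00116), and an mRNA level does not check loss of the protein. Of 8 fibroblast markers 5 were in the table, and their values summed to 159 and 176 after IAA, against 225 and 273 in Untreated cells. Among these Col3a1 was at 0 to 2 in each library, and Thy1 (84 and 94 after IAA, 140 and 167 Untreated) and Col1a1 (30 and 32 after IAA, 41 and 69 Untreated) passed the test as lower. Pdgfra, the other marker tested, had 42 and 41 after IAA, against 34 and 31 in Untreated cells, and was not called (log2 fold change 0.34, SE 0.24). Whether these markers have a part in the results below was not tested. Markers of differentiated germ layers summed to 306 and 328 after IAA and 310 and 317 in Untreated cells, and of the 5 tested limma called 0, with 0 at an unadjusted p under 0.05 and 0 by voom.

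After IAA most of the nuclear respiratory mRNAs were modestly lower, and none was called higher. On the deposited scaling, limma called 38 of the 45 genes that passed the filter (mean value of 10 or more) lower at an adjusted p under 0.05, where 28.9% of all 14928 genes tested were called lower. All 45 had a log2 fold change below 0, as did 63.0% of all genes tested, so none of the 45 was higher at any p. Over all genes tested 11.1% were called higher. The median log2 fold change of the 45 genes was -0.24, with an interquartile range of -0.30 to -0.17, beside a median of -0.11 and a range of -0.34 to 0.11 for all genes tested. In 40 of the 45 both IAA libraries lay below both Untreated libraries, a pattern that 45.6% of all genes tested showed. In bulk RNA a lower level per cell and fewer cells of a kind cannot be told apart.

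The size of this fall depended on how the libraries were scaled. With median-of-ratios factors, which bring the median of all genes tested to -0.01, 23 of the 45 were called lower, beside 20.5% of all genes, and none was higher, beside 20.3% of all genes. The median was then -0.14. The distance between the median of the 45 and that of all genes was -0.14 under both scalings. New factors shift all genes of a library nearly alike, so this equality was fixed in advance and adds no support. Under median-of-ratios factors 42 stayed below 0, while Atp5l, Atp5o and Cox7a1, none of them called, moved to 0.05, 0.02 and 0.04. At the deposited scaling, the 4 fits on unrounded values that left out 1 library gave medians of -0.27 to -0.19 for the 45. In these fits limma's prior degrees of freedom were infinite, so each gene's spread came only from the trend over all genes. Calls in them are thus no measure of how well a gene's replicates match, and they depended on rounding, as described in the last section. Of the 38, 12 lost their call in at least 1 of these fits: Cycs, Uqcrfs1, Uqcrh, Cox4i1, Cox6a1, Cox6b2, Cox8a, Atp5g1, Atp5h, Atp5j, Atp5k and Atp5md. Of the 44 genes with an adjusted p in the authors' deposited table, 12 were lower at the same threshold and none was higher, where 9.57% of all such genes were lower and 2.47% higher. Those 12 (Sdhb, Sdhc, Cyc1, Uqcrc1, Uqcrc2, Cox7c, Atp5a1, Atp5b, Atp5c1, Atp5d, Atp5g3 and Atp5pb) were all among the 23. The authors' deposited table labels all 48 genes unchanged, and the 14 genes it labels up and the 67 it labels down all have an absolute log2 fold change of at least 1.00.

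**Figure D1:**
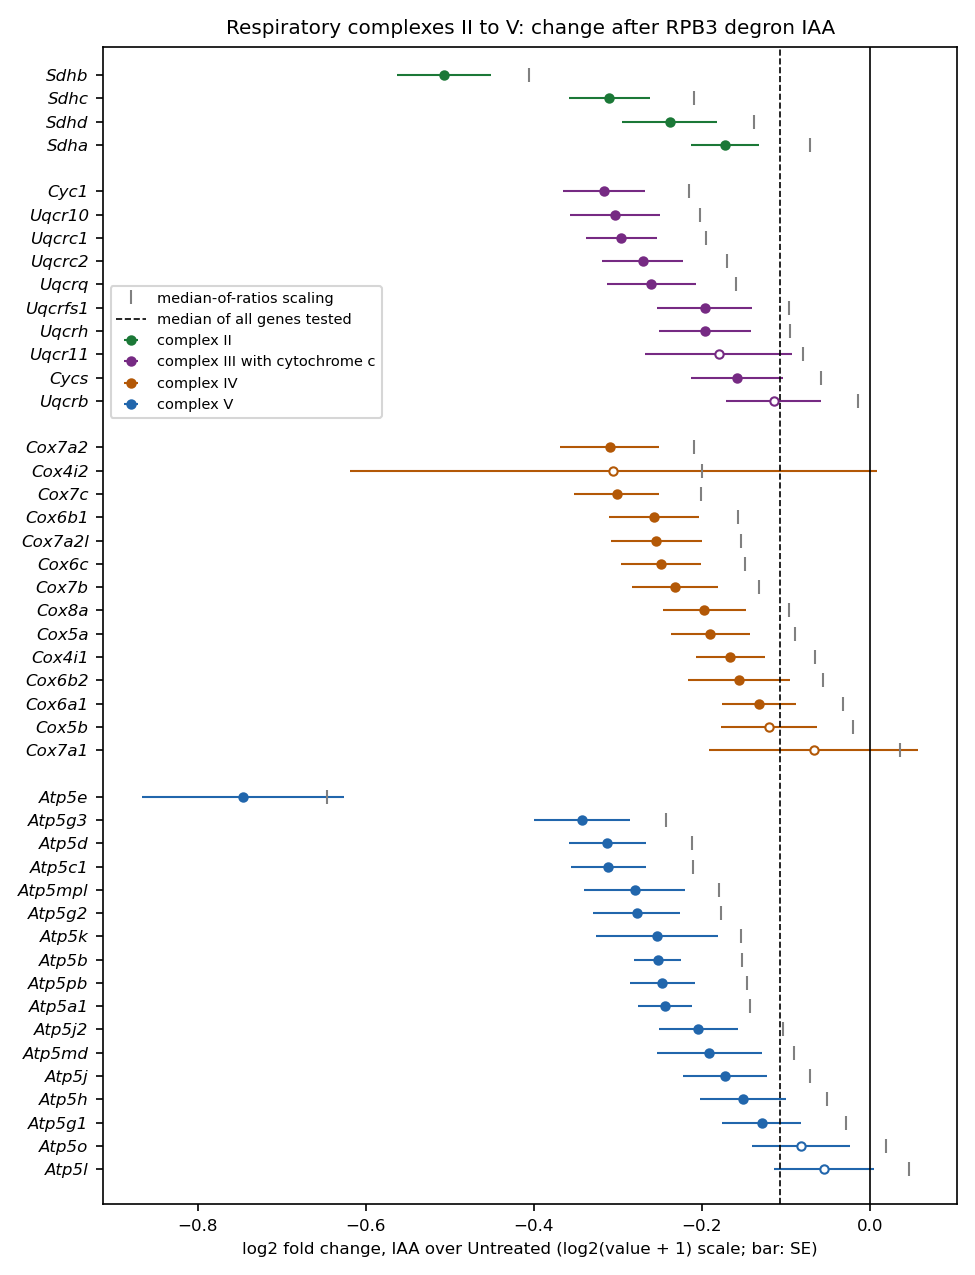
Log2 fold change (IAA over Untreated, log2(value + 1) scale, horizontal axis) of the 45 tested genes by complex, with standard errors. Filled points were called lower and open points were not, grey ticks give the value under median-of-ratios scaling, and the dashed line is the median of all genes tested (-0.11).

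Summed over the 48 genes, the mRNAs made up 0.923% and 0.914% of the total in the IAA libraries, against 0.994% and 1.02% in the Untreated libraries. The share does not depend on the scaling between libraries, and the groups did not overlap. With 2 libraries against 2, the two-sided exact permutation p of 0.33 is the smallest that the design allows. Complex V alone took 0.491% and 0.489% after IAA, against 0.536% and 0.545% in Untreated cells. The Untreated libraries were not alike for these genes: replicate 2 lay above replicate 1 for 39 of the 45. IAA replicate 1 lay above IAA replicate 2 for 30. These counts were not made over all genes. The values of the whole table also summed higher in Untreated replicate 2 (10107567) than in Untreated replicate 1 (9913931). In IAA replicate 1 they summed to 9381022, against 9240287 in IAA replicate 2. The median of the 45 was -0.19 in the fit, on unrounded values, without Untreated replicate 2.

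**Figure D2:**
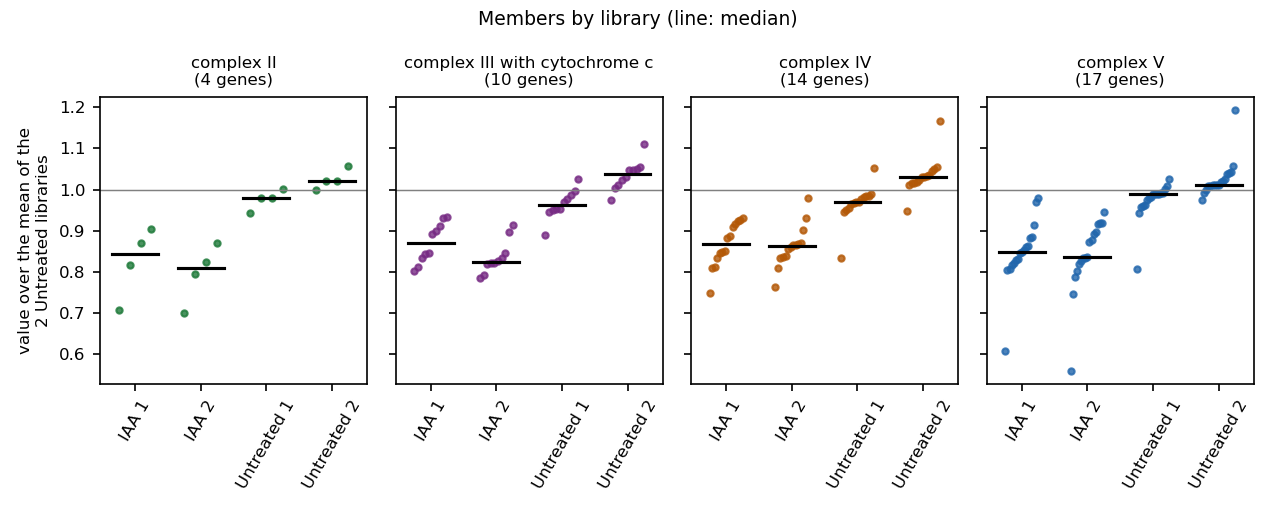
Each point is a gene's normalised read count over the mean of its 2 Untreated libraries (vertical axis), by complex and library, and black lines are medians. Both IAA libraries lie lower than both Untreated libraries for most genes. Untreated 2 lies above Untreated 1 for 39 of the 45, a count that was not made over all genes.

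The genes are short and abundant. Their median length was 6819 bases from the first to the last exon, against 23782 for all protein-coding genes tested, and the median principal transcript had 742 bases and 4 exons, against 2911 bases and 9 exons. Their median level was 1418.5 normalised read counts, against 307.25 for all protein-coding genes tested. Among all genes with a mean of at least 100 the share called lower was 38.6%, beside 39 of the 44 genes of the set at that level. Within the 45 the change hardly followed these features. The Spearman correlation across genes of the log2 fold change was -0.19 with gene length, -0.14 with transcript length, -0.15 with exon number and -0.11 with level, over genes that share the same 4 libraries.

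Promoters of respiratory genes are known for sites of NRF1 and of the ETS factor GABP, and some bind YY1. RefSeq promoters (GRCm38.p6, 250 bases before to 50 after the start) matched 36 of the 48 genes and 35 of the 45 tested. The letters GCATGCG, the core of the NRF1 motif, stood on either strand in 8 of 35 promoters (22.9%), against 6.62% of the promoters of all genes tested. CCGGAAG, for ETS factors, stood in 12 of 35 (34.3%), against 18.0%, ATGGCGG, for YY1, in 1 of 35 (2.86%), against 8.14%, and GGGCGG, for SP1, in 14 of 35 (40.0%), against 65.0%. TATAAA, for the TATA box, stood in 2 of 35 (5.71%), against 6.73%, and a start of C followed by 4 pyrimidines, as in the mRNAs of ribosomal proteins, in 2 of 35 (5.71%), against 2.37%. The 8 genes with the NRF1 letters had a median log2 fold change of -0.22 and the others -0.20, and the 12 with the ETS letters -0.20 and the others -0.23, so genes with and without these letters had close medians. Sequences are shown for Sdhb, the largest of the falls with closely matching replicates, Cycs, whose rat promoter is a textbook NRF1 target, Atp5l, the smallest change of the set, and Atp5b, the most abundant. They lie at chr4:140961021-140961320 (plus strand), chr6:50566520-50566819 (minus strand), chr9:44920693-44920992 (minus strand) and chr10:128083057-128083356 (plus strand). Capitals mark the NRF1, ETS and YY1 letters on either strand, and a palindromic NRF1 site, as in Cycs and Atp5l, matches on both strands with an overlap.
Sdhb: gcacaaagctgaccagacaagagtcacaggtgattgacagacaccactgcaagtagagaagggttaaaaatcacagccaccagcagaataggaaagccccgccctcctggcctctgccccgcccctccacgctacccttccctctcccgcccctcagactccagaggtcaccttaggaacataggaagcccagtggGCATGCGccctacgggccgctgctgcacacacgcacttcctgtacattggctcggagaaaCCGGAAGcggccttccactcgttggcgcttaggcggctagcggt
Cycs: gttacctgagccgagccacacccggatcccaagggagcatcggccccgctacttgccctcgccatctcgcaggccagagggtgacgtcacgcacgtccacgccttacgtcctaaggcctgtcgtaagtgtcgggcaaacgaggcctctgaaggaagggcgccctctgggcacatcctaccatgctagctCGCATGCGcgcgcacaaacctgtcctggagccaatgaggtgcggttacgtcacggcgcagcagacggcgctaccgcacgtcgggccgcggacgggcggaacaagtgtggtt
Atp5l: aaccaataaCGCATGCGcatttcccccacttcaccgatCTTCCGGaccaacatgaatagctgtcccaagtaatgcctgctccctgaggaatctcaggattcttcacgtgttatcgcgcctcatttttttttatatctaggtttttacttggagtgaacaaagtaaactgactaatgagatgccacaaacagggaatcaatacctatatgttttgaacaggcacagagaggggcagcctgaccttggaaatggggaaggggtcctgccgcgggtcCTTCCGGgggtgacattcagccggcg
Atp5b: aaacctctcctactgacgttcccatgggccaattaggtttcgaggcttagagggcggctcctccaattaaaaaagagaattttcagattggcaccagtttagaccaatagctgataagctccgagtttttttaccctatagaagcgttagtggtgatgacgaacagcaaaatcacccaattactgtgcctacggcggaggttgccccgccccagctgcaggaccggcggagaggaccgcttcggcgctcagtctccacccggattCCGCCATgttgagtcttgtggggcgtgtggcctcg
Sdhb and Atp5l both carry the NRF1 and the ETS letters and stood far apart in the set, at -0.51 and -0.05. A match is a description of the letters and not evidence of binding.

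The counts for each complex, here and below, stand beside 28.9% of all genes tested called lower, or 20.5% with median-of-ratios factors. Among genes with a mean of at least 100 the share was 38.6% at the deposited scaling. All 4 genes of complex II were called lower, with a median of -0.27, and 3 of them (Sdhb, Sdhc and Sdhd) also with median-of-ratios factors. Sdhb encodes the iron-sulphur subunit that carries electrons from the flavin to the membrane anchor (ENSMUSG00000009863, chromosome 4, 140961203 to 140979193, GRCm38). It had 781 and 775 normalised read counts after IAA, against 1106 and 1105 in Untreated cells. The replicates nearly coincided and the groups lay far apart, which put the log2 fold change at -0.51 (SE 0.06, adjusted p = 6.55e-07), or -0.41 under median-of-ratios scaling. Sdhc, a membrane anchor subunit, had 1426 and 1388 after IAA, against 1709 and 1780 Untreated (-0.31, SE 0.05, adjusted p = 4.12e-05). Here too the groups were apart. The other anchor gene, Sdhd, had 1352 and 1279 after IAA, against 1466 and 1641 Untreated (-0.24, SE 0.06, adjusted p = 0.00214), and its value was -0.16 without Untreated replicate 2. Sdha, the flavoprotein that holds the catalytic site, had 3171 and 3047 after IAA, against 3435 and 3572 Untreated (-0.17, SE 0.04, adjusted p = 0.00197). Sdhb fell most and Sdha least of the 4, so a lower ratio between them restates these changes. The ratio of Sdhb to Sdha values was 0.246 and 0.254 after IAA, against 0.322 and 0.309 in Untreated cells. To Sdhc it was 0.548 and 0.558, against 0.647 and 0.621, and to Sdhd 0.578 and 0.606, against 0.754 and 0.673. None overlapped between the groups (two-sided exact permutation p = 0.33 for each, the smallest possible).

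Complex III and cytochrome c had 8 of 10 genes called lower, with a median of -0.23, and 5 with median-of-ratios factors. Cyc1, the haem-bearing cytochrome c1 that hands electrons to cytochrome c, had 1888 and 1839 normalised read counts after IAA, against 2209 and 2437 in Untreated cells (log2 fold change -0.32, SE 0.05, adjusted p = 3.88e-05). The core subunit genes moved alike. Uqcrc1 had 3093 and 2879 after IAA, against 3651 and 3674 Untreated (-0.30, SE 0.04, adjusted p = 1.25e-05), and Uqcrc2 had 1521 and 1499, against 1869 and 1775 (-0.27, SE 0.05). Of the small subunits, Uqcr10 had 962 and 982 after IAA, against 1185 and 1214 Untreated (-0.30, SE 0.05, adjusted p = 0.000151), and Uqcrq was at -0.26. Uqcrfs1, the Rieske iron-sulphur protein, and Uqcrh, the acidic hinge protein, were each at -0.20 and were not called with median-of-ratios factors. Uqcrb (-0.11) and Uqcr11 (-0.18, adjusted p = 0.109) did not pass. The Uqcr11 groups overlapped, with 595 and 528 after IAA and 568 and 710 in Untreated cells. Uqcr11 did pass on unrounded values (adjusted p = 0.0344), with voom (adjusted p = 0.0346), among genes with a mean of at least 100 (adjusted p = 0.0315) and with a replicate block (adjusted p = 0.0483), and its value was -0.02 without Untreated replicate 2. Cycs, the somatic cytochrome c, had 1367 and 1375 after IAA, against 1448 and 1617 Untreated (-0.16, SE 0.05, adjusted p = 0.0257). That call was lost without either IAA library or without Untreated replicate 2. On unrounded values, the log2 fold change of Cycs was -0.08 without Untreated replicate 2 and -0.24 without Untreated replicate 1.

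Complex IV had 11 of 14 tested genes called lower, with a median of -0.21, and 6 with median-of-ratios factors. The largest called falls were in Cox7a2 and Cox7c, which encode small subunits. Cox7a2 had 1035 and 929 normalised read counts after IAA, against 1193 and 1238 in Untreated cells (log2 fold change -0.31, SE 0.06, adjusted p = 0.00032). Cox7c had 1507 and 1502 after IAA, against 1772 and 1940 Untreated (-0.30, SE 0.05, adjusted p = 8.93e-05). In both the IAA libraries lay below the Untreated ones. Cox6b1 (-0.26), Cox7a2l (-0.25), Cox6c (-0.25) and Cox7b (-0.23) were called under both scalings as well. Cox4i1, the most abundant gene of the complex and a subunit to which regulatory ATP can bind, had 4110 and 3886 after IAA, against 4349 and 4622 Untreated (-0.17, SE 0.04, adjusted p = 0.00283). It was called at the deposited scaling and not with median-of-ratios factors (-0.06), as were Cox8a, Cox5a, Cox6b2 and Cox6a1. Cox6a1, the ubiquitous partner of the muscle form Cox6a2, had 2133 and 2079 after IAA, against 2269 and 2347 Untreated (-0.13, SE 0.04, adjusted p = 0.0211). Cox8a, one of the smallest subunits, had 2038 and 1984 after IAA, against 2184 and 2432 Untreated. Without Untreated replicate 2 Cox8a was at -0.12 and did not pass, in place of -0.20 with all libraries. Cox5b, with 932 and 952 after IAA and 993 and 1055 in Untreated cells, did not overlap between groups and was not called (-0.12, SE 0.06, adjusted p = 0.101).

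Several complex IV subunits exist as paralogues used in different tissues, and these cells mostly used the ubiquitous forms. Per kb of principal transcript, Cox4i1 stood at 5295 normalised read counts after IAA and 5941 in Untreated cells, against 26.0 and 32.9 for Cox4i2, the form best known from lung and from hypoxia. Cox4i2 was read at 18 and 20 after IAA, against 20 and 28 Untreated (-0.31, SE 0.31, adjusted p = 0.468). Cox6a2, a heart and muscle form, was read at 6 and 2 after IAA and 1 and 5 in Untreated cells, Cox7b2 at 0 and 4 and at 2 and 3, and Cox8c at 2 and 0 and at 1 and 2. These 3 genes did not pass the filter, and nothing can be said of their change at this depth. Cox7a1, another heart and muscle form, was present at 366.4 per kb after IAA and 384.2 in Untreated cells, against 1490 and 1844 for Cox7a2 and 1066 and 1270 for Cox7a2l, a relative tied to the joining of complexes III and IV. It had 140 and 148 after IAA and 159 and 143 in Untreated cells, overlapped between groups and was not called (-0.07, SE 0.12), and with median-of-ratios factors its value was 0.04. The muscle markers Ckm, Myh6, Myh7, Acta1, Actn2 and Tnnt2 summed to 105 and 100 after IAA and 128 and 100 in Untreated cells, and of the 3 tested limma called 0, with 0 at an unadjusted p under 0.05 and 0 by voom. Cox6b2, known in other settings as the testis form, departed most from this pattern. It stood at 1602 per kb after IAA and 1785 in Untreated cells, near Cox6b1 at 2090 and 2501. Its 918 and 854 after IAA, against 953 and 1021 Untreated, gave -0.16 (SE 0.06, adjusted p = 0.0456), a call that was lost without IAA replicate 2, at -0.10, and without Untreated replicate 2, at -0.11. The ratio of Cox6b2 to Cox6b1 values was 0.713 and 0.659 after IAA, against 0.649 and 0.629 in Untreated cells (two-sided exact permutation p = 0.33, the smallest possible).

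**Figure D3:**
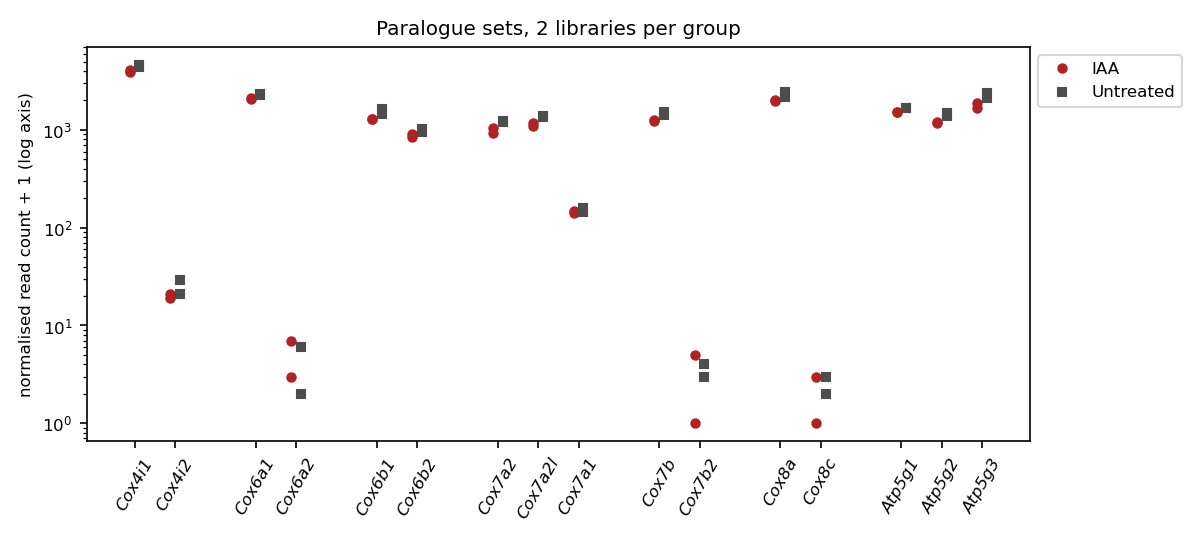
Normalised read counts plus 1 (vertical log axis) of paralogous complex IV and V genes, with 1 point per library. Cox4i2, Cox6a2, Cox7b2 and Cox8c lie far below their partners in both groups, whereas Cox6b2 lies close to Cox6b1 and the 3 Atp5g genes lie close together. The counts are not divided by transcript length, and per kb Atp5g1 lies below the other Atp5g genes.

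Complex V had 15 of 17 genes called lower, with a median of -0.25, and 9 with median-of-ratios factors. All 5 genes of the catalytic F1 head and central stalk were called under both scalings. Atp5b, the catalytic beta subunit and the most abundant gene of the set (chromosome 10, 128083273 to 128090391, GRCm38), had 15828 and 15604 normalised read counts after IAA, against 18501 and 18945 in Untreated cells. Its replicates were close and the groups apart (log2 fold change -0.25, SE 0.03, adjusted p = 5.42e-07). Its partner Atp5a1, the alpha subunit, had 11111 and 10653 after IAA, against 12569 and 13197 Untreated (-0.24, SE 0.03, adjusted p = 5.86e-06). Alpha and beta subunits form the head in equal numbers, and the ratio of Atp5a1 to Atp5b values overlapped between the groups, at 0.702 and 0.683 after IAA and 0.679 and 0.697 in Untreated cells. The central stalk genes Atp5c1 (gamma) and Atp5d (delta) were both at -0.31, with 1799 and 1789 after IAA, against 2182 and 2271 Untreated, for Atp5c1 and 1758 and 1685, against 2116 and 2159, for Atp5d.

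Atp5e, the epsilon subunit of the central stalk, had the lowest value of all, on uneven Untreated replicates. It had 303 and 279 normalised read counts after IAA, against 402 and 593 in Untreated cells (log2 fold change -0.75, SE 0.12, adjusted p = 5.61e-05). The groups did not overlap, but the Untreated libraries differed by more than Untreated replicate 1 differed from the IAA libraries. In the fits on unrounded values, the log2 fold change of Atp5e was -0.47 without Untreated replicate 2 and -1.03 without Untreated replicate 1. In the authors' deposited table its adjusted p was 0.131. Per kb of transcript, the head genes Atp5b and Atp5a1 stood at 8203 and 4404 after IAA and 9772 and 5214 in Untreated cells, above Atp5c1 at 1539 and 1910, Atp5d at 1471 and 1826 and Atp5e at 691.2 and 1182. In the enzyme the head holds more copies of alpha and beta than of the stalk subunits.

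The c subunits that form the rotating ring in the membrane are encoded by 3 genes, Atp5g1, Atp5g2 and Atp5g3, which make the same mature protein. All 3 were called lower, but by different amounts. Atp5g3 had 1880 and 1687 normalised read counts after IAA, against 2131 and 2394 in Untreated cells (-0.34, SE 0.06, adjusted p = 7.78e-05). Atp5g2 had 1176 and 1199 after IAA, against 1478 and 1402 Untreated (-0.28, SE 0.05, adjusted p = 0.000248). Atp5g1 had 1528 and 1534 after IAA, against 1657 and 1691 Untreated (-0.13, SE 0.05, adjusted p = 0.0354), and it was not called with median-of-ratios factors (-0.03). The share of Atp5g1 in the summed values of the 3 genes was 33.3% and 34.7% after IAA, against 31.5% and 30.8% in Untreated cells. These did not overlap, while the shares of Atp5g2 and Atp5g3 did. The shares were not tested, and with 2 libraries against 2 a two-sided exact permutation p cannot fall under 0.33. They are also not divided by transcript length. Per kb of principal transcript Atp5g1 stood at 625.7 in Untreated cells, against 2457 for Atp5g2 and 3149 for Atp5g3. Principal transcripts of Atp5g1 run from 596 to 4715 bases, so its level per kb is uncertain.

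The peripheral stalk, which holds the head still against the ring, had the smallest median of the 4 complex V groups, at -0.16. Atp5pb had 2904 and 2866 normalised read counts after IAA, against 3426 and 3421 in Untreated cells (log2 fold change -0.25, SE 0.04), and was called under both scalings. Atp5j (-0.17) and Atp5h (-0.15) were called at the deposited scaling and not with median-of-ratios factors. Atp5o, the OSCP subunit that joins stalk and head, had 1032 and 979 after IAA and 1024 and 1105 in Untreated cells, which overlapped (-0.08, SE 0.06, adjusted p = 0.281). Of the small membrane subunits that shape ATP synthase dimers and cristae, Atp5mpl (-0.28) was called under both scalings. Atp5k (-0.25), Atp5j2 (-0.20) and Atp5md (-0.19) were called at the deposited scaling. Atp5l did not pass, with 918 and 885 after IAA and 899 and 975 in Untreated cells (-0.05, SE 0.06, adjusted p = 0.496). Atp5l also had the most near-identical copies, with 7 other rows of the table matching it, none above a mean of 21.

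Reads of these genes can be shared. Of the 48 genes 11 had a copy in the table with at least 95% identity over 50% or more of a coding transcript, and no such copy exceeded a mean of 24.25. Without the 11, 30 of 34 were called lower, with a median of -0.25. Exons of 13 genes overlap a gene on the opposite strand, among them Atp5j with Gabpa, Uqcrc2 with Pdzd9 and Cox4i1 with Emc8, and Atp5o also overlaps a second gene of the same symbol. The strand setting of the counting is not given in the sources used here, so such reads cannot be told apart.

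The lists of genes that work beside complexes II to V are read against the shares over all genes tested, 28.9% lower and 11.1% higher, or 20.5% and 20.3% under median-of-ratios scaling. In complex I, which feeds electrons from NADH into the chain, limma called 24 of 40 tested genes lower, with a median of -0.21, and 15 under median-of-ratios scaling. It called 0 higher under either, with 0 above 0 at an unadjusted p under 0.05, 0 by voom and 0 in the authors' deposited table. Among the genes called lower were Ndufa7, at 894 and 880 after IAA and 1267 and 1274 Untreated (-0.52), and Ndufa4l2 (-0.52). The list held all Nduf symbols except Ndufaf and pseudogenes. It thus counted Ndufa4, a subunit now placed in complex IV, and its relative Ndufa4l2. Ndufa4 had 1862 and 1866 after IAA, against 1888 and 1952 Untreated (-0.04, SE 0.05), and was not called. The TCA cycle enzymes, which supply succinate and NADH, had 10 of 13 lower, with a median of -0.26, and 7 under median-of-ratios scaling. None was higher by limma, with 0 at an unadjusted p under 0.05, 0 by voom and 0 in the authors' deposited table. The largest changes were in Suclg2 (-0.40) and Cs, citrate synthase (-0.36). Assembly factors of complexes II to V had 9 of 33 lower and 4 higher, close to those shares, with a median of -0.13 beside -0.11 for all genes tested. Under median-of-ratios scaling 7 were lower and 9 higher. Bcs1l, which inserts the Rieske protein into complex III, had 163 and 180 normalised read counts after IAA, against 245 and 284 in Untreated cells (-0.62, SE 0.11). Coa7, an assembly factor of complex IV, had 215 and 223 after IAA, against 144 and 152 Untreated (0.56, SE 0.11).

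Of 12 regulators of respiratory genes 3 were lower and 2 higher, or 3 and 3 with median-of-ratios factors, which is also near the shares over all genes tested. Nrf1 itself, whose protein binds the letters described above, had 969 and 1012 normalised read counts after IAA, against 765 and 770 in Untreated cells (log2 fold change 0.37, SE 0.06, adjusted p = 4.58e-05). Ppargc1b, a coactivator of mitochondrial genes, had 94 and 116 after IAA, against 143 and 168 Untreated (-0.57, SE 0.14). Gabpa was at -0.05, or 0.05 under median-of-ratios scaling, and did not pass. The mitochondrially encoded subunits of complexes III to V were divided, with 3 of 5 tested lower and none higher by limma (1 at an unadjusted p under 0.05 and 1 by voom). Those with the most reads were mt-Co1 and mt-Cytb. They had 37716 and 35896 and 24837 and 25878 after IAA, against 34258 and 35856 and 25902 and 25323 in Untreated cells. They were at 0.07 and -0.01 and were not called at the deposited scaling, while median-of-ratios factors called both higher, at 0.17 and 0.09. Of those with few reads, mt-Atp6 (-0.50), mt-Co2 (-0.46) and mt-Co3 (-0.46) were called lower at values of 66 to 163 per library. The mt-Co2 groups overlapped, and under median-of-ratios scaling mt-Atp6 alone of the 3 was called. The search for near-identical copies did not cover mitochondrially encoded genes, so a low count here need not mean a scarce mRNA.

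**Figure D4:**
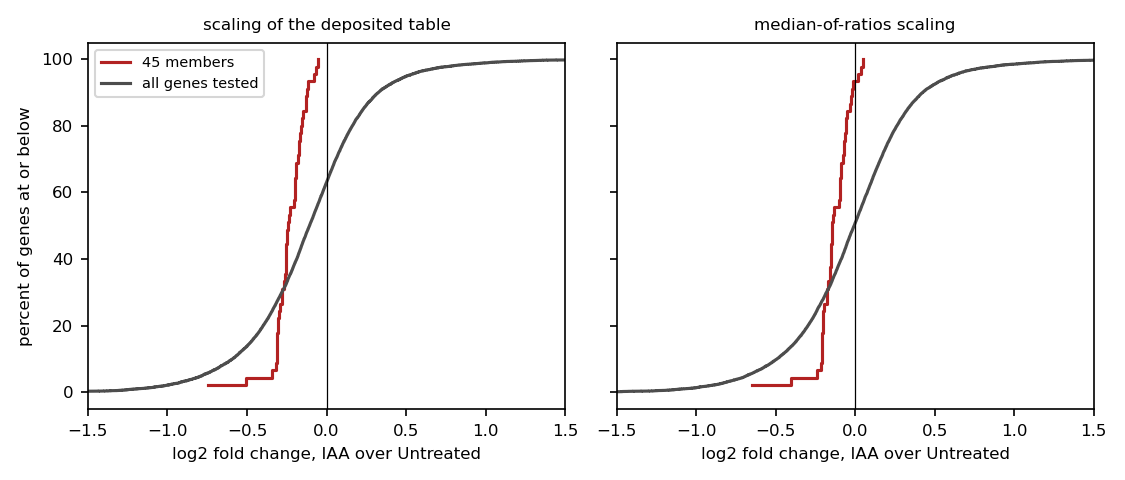
Percent of genes (vertical axis) at or below each log2 fold change (IAA over Untreated, horizontal axis) for the 45 tested genes and for all genes tested, at the scaling of the deposited table and with median-of-ratios factors. The curve of the 45 genes is steeper than that of all genes, and its median lies at -0.24 on the left and -0.14 on the right.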

How the data were processed

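A single table was used, with 1 row per mouse Ensembl gene and 4 library columns whose names matched the sample titles. The submitters' processing notes list DESeq2, featureCounts, STAR, Bowtie2, SAMtools, deepTools and cutadapt 1.18, with mm10 and dm6 as builds and no role for any. Which gene annotation was counted is not given in the sources used here. Per-library values were deposited as scores, which the values themselves show to be reads over a size factor, rounded. They are called normalised read counts here. The authors' mean column holds the signal averaged over libraries before rounding. It gave factors of 0.98 and 0.95 (IAA) and 0.88 and 0.87 (Untreated), and whole reads for 100% of rows (tolerance 0.001 on the mean). The labels describe culture of Drosophila S2 cells but do not say if a spike-in set these factors. The authors also deposited log2 fold changes with a standard error score and a Wald score, and p-values, raw and adjusted.

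Genes with a mean of at least 10 entered a limma 3.58.1 fit of log2(value + 1) (R 4.3.3; empirical Bayes with trend, two-sided, Benjamini-Hochberg over all genes tested). Fold changes on that scale understate changes of low genes. The count test foreseen for raw counts was not run, because the columns are scaled and rounded. Groups and replicate numbers came from the titles. Genes described in full were the 3 largest changes and 2 most abundant of each complex and all paralogue sets, with further genes named after their values were seen. The genes and lists were chosen with earlier results of these data known. Positions, lengths and overlaps are from GENCODE M21 (GRCm38), which holds 30214 of the 30282 identifiers and all 48 genes. Copies were found with blastn 2.17.0. The fit was tested on simulated data.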

Additional observations from a re-analysis of the deposited data

How the results depend on the processing

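The number of calls moved by over 1.5 times with the filter on low values, the scaling, the tool and, without 1 library, rounding. Of all genes tested, 4312 were called lower and 1650 higher. Median-of-ratios factors gave 3054 lower and 3037 higher, 23 respiratory genes lower and a median of -0.14, and library totals gave 2985 lower and 3083 higher, 23 and -0.14. With no filter on low values there were 638 lower and 179 higher genes and 5 respiratory genes lower. The authors' deposited table had 1100, 284 and 12. Leaving out 1 library gave 0 lower, 0 higher and 0 respiratory genes lower in each fit on the rounded values, with medians of -0.26 to -0.19. There, ties between libraries left limma a prior of 1.55 to 1.59 degrees of freedom, against 18.0 with all 4. On unrounded values the prior was infinite in each fit without 1 library, so a gene's own spread had no part in its call. On unrounded values, added after seeing the data, the same fits gave 3471 to 3939 lower genes, 1146 to 1608 higher genes and 29 to 41 respiratory genes lower, with medians of -0.27 to -0.19, and with all 4 libraries 39. Voom on recovered reads also gave 39. None was called higher in any fit. Signs turned, with no call, for Cox7a1, Atp5o and Atp5l, at 0.036, 0.019 and 0.047 with median-of-ratios factors and 0.040, 0.023 and 0.051 with library totals. Without 1 library Cox7a1 ranged from -0.14 to 0.0094 (0.015 unrounded) and Atp5l from -0.11 to 0.0038 (0.0045 unrounded). Other thresholds, pseudocounts, a mean of at least 100 and shares of recovered reads kept the counts within 1.5 times. The replicate numbers did not pair the libraries (correlation of deviations 0.0015, or -0.06 at a mean of at least 100). A replicate block gave 4311 lower and 1647 higher genes and 38 respiratory genes lower, adding Uqcr11 (adjusted p = 0.0483; also called with unrounded values, voom and a mean of at least 100) and losing Atp5g1 (adjusted p = 0.0644). With 2 libraries per group, changes near -0.1 were at the limit of what could be called.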
